A study of Mus musculus with 2 samples.

Results

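The 3 colony-stimulating factors and their receptor chains were examined in single cells from the lungs of mice bearing 4T1 breast tumors that received saline or nanoparticles (NPs). The genes were Csf1, Csf2 and Csf3, which encode the secreted factors, and Csf1r, Csf2ra, Csf2rb, Csf2rb2 and Csf3r, which encode the receptors. They were taken by symbol, and all 8 were found among the 32285 genes of the deposited matrices. The question was which lung cells carried the factors, how high the receptors were in the myeloid cells that take up NPs, and how both compared between NP and saline.

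Both groups were female BALB/cJ mice, 12 weeks old, that carried 100000 inoculated 4T1 cells, a transplantable mouse mammary carcinoma line that spreads to the lung. One group received intravenous saline and the other intravenous poly(lactide-co-glycolide) (PLG) NPs, every 3 days from day 1, and the lungs were collected at day 14. Per the labels each group was a pool of 4 mice sequenced as 1 library, so no spread between animals can be measured and no test between the groups was possible. The 95% intervals given with levels and ratios cover counting error only, and molecular identifiers (UMIs) were counted, not reads.

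The saline library held 91168129 UMIs and the NP library 90081747. Barcodes were kept where they had between 500 and 5000 genes detected and where mitochondrial transcripts stayed below 7.5%, which left 8662 saline and 8333 NP cells with median depths of 6474.5 and 6008 UMIs. The libraries shared 21 cell barcodes, 0.242% of the saline and 0.252% of the NP cells. Cells were clustered without the 8 genes and without the wider signalling list described later, and clusters were named from marker lists, which gave 15 classes. Alveolar macrophage-like, endothelial-like, fibroblast-like and epithelial-like cells were found in both libraries, as the lung label requires. All class names below stand for such marker-named, X-like classes. Neutrophils made up 64.7% of the saline cells and 37.0% of the NP cells.

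Colony-stimulating factors act on the production, survival and activation of myeloid cells. Csf1 encodes macrophage colony-stimulating factor (M-CSF), which binds the receptor tyrosine kinase encoded by Csf1r and maintains monocytes and macrophages. Csf2 encodes granulocyte-macrophage colony-stimulating factor (GM-CSF), whose receptor pairs the ligand-binding alpha chain (Csf2ra) with the signalling beta common chain (Csf2rb) that the interleukin-3 and interleukin-5 receptors also use, and which alveolar macrophages need to mature. Csf2rb2 encodes a beta chain found in mice that works with the interleukin-3 receptor. Csf3 encodes granulocyte colony-stimulating factor (G-CSF), which binds Csf3r and drives neutrophil production, and 4T1 tumors are known for expanding neutrophils.

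The beta chain genes are near copies, so how far their UMIs can be told apart was looked at in the transcript sequences. Their coding sequences are 2691 and 2637 bases long and were identical at 95.2% of the 2631 aligned bases. The last 90 coding bases of Csf2rb2 are shown with the matching stretch of Csf2rb (coding bases 2548 to 2637) as an illustration. The assay reads the 3′ end of the transcript, and whether its reads covered this coding stretch was not tested. Capitals mark the 7 positions at which the copies differ.
Csf2rb: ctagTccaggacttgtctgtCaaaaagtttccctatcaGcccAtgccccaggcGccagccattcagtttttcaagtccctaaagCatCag
Csf2rb2: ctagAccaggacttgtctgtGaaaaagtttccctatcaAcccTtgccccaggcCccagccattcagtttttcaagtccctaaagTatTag
Of the 1382 different 90-base windows in the last 500 bases of the 5 protein-coding Csf2rb transcripts, 70 (5.07%) occurred unchanged in Csf2rb2. None of the 822 windows of the 2 Csf2rb2 transcripts occurred unchanged in Csf2rb. Reads that match both copies may have been dropped or placed on either, so all Csf2rb and Csf2rb2 values below are uncertain to that extent.

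In the GRCm38 annotation (GENCODE M21) the genes lie on several chromosomes. The factor genes lie at chr3:107741048-107760469 on the minus strand (Csf1), chr11:54247271-54249667 on the minus strand (Csf2) and chr11:98701263-98703629 on the plus strand (Csf3). The receptor genes lie at chr18:61100598-61132149, plus strand (Csf1r), chr19:61223957-61228429, minus strand (Csf2ra), and chr4:126024550-126044440, plus strand (Csf3r). The beta chain genes lie side by side at chr15:78325752-78353847 on the plus strand (Csf2rb) and chr15:78282507-78305721 on the minus strand (Csf2rb2).

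Among the kept cells, Csf3r had the most UMIs in neutrophils, Csf1r was highest in non-classical monocytes, and Csf2ra and Csf2rb were spread over most myeloid classes. In neutrophils the Csf3r level was 1139 CPM (UMIs of the gene per 1000000 UMIs of the class) in saline (1129 to 1148) and 1139 in NP (1125 to 1152), and the gene was detected in 5562 of 5600 and 3055 of 3086 cells. The log2 ratio of NP to saline was 0.00 (-0.02 to 0.02). Against this level, T cells, which lack the G-CSF receptor and served as background, were at 25.5 and 24.0 CPM. T cells were among the lowest classes, and fibroblasts, at 76.4 and 85.8 CPM, and endothelial cells, at 98.8 and 49.3 CPM, had more. Of the larger myeloid classes, classical monocytes had 155 and 137 CPM, non-classical monocytes 97.8 and 134 CPM and alveolar macrophages 99.7 and 77.2 CPM. The alveolar macrophage intervals overlapped those of the fibroblasts in both libraries and the non-classical monocyte interval did in saline, so that these values are not read as levels above background. NK cells had 104 and 102 CPM, with a summed level of the 17 neutrophil markers of 13231 and 20725 CPM whose part in this value was not tested.

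For Csf1r, with the mature dendritic cells left out because saline held 1 of them, the level order was non-classical monocytes, then C1q macrophages, then classical monocytes in both libraries. Non-classical monocytes, the patrolling monocytes that depend on M-CSF, were at 718 CPM in saline (652 to 788) and 906 in NP (872 to 940). C1q macrophages were at 665 CPM (550 to 798) and 545 CPM (483 to 613), so that in saline, where only 17 such cells were kept, their interval overlapped that of the non-classical monocytes. Classical monocytes, which express Ccr2 and enter inflamed tissue from blood, were at 335 and 368 CPM. Conventional dendritic cells followed with 109 and 130.5 CPM and alveolar macrophages with 80.4 and 87.4 CPM. Neutrophils were at 57.5 CPM in both libraries, above the T cell values of 10.5 and 25.5 CPM.

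Csf2ra, the GM-CSF-binding chain, was highest in non-classical monocytes (418 and 331 CPM) and alveolar macrophages (382 and 366 CPM). Conventional dendritic cells had 297 and 278 CPM, classical monocytes 290 and 274 CPM, and neutrophils 195 and 179 CPM. The intervals of dendritic cells and classical monocytes overlapped in both libraries. Csf2rb, the shared signalling chain, had another order. It was highest in basophils, where every kept cell had at least 1 UMI of it (21 of 21 saline and 39 of 39 NP cells), at 918.5 and 813 CPM. Alveolar macrophages were next with 483 and 478 CPM, and neutrophils (259 and 280 CPM) and classical monocytes (271 and 274 CPM) lay close together. Csf2rb2 was also highest in basophils (281 and 497 CPM), then in plasmacytoid dendritic cells, the type I interferon producers, with 204 and 167 CPM, and in alveolar macrophages with 143 and 148.5 CPM. Basophils and plasmacytoid dendritic cells are cell types known to respond to interleukin-3.

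**Figure D1:**
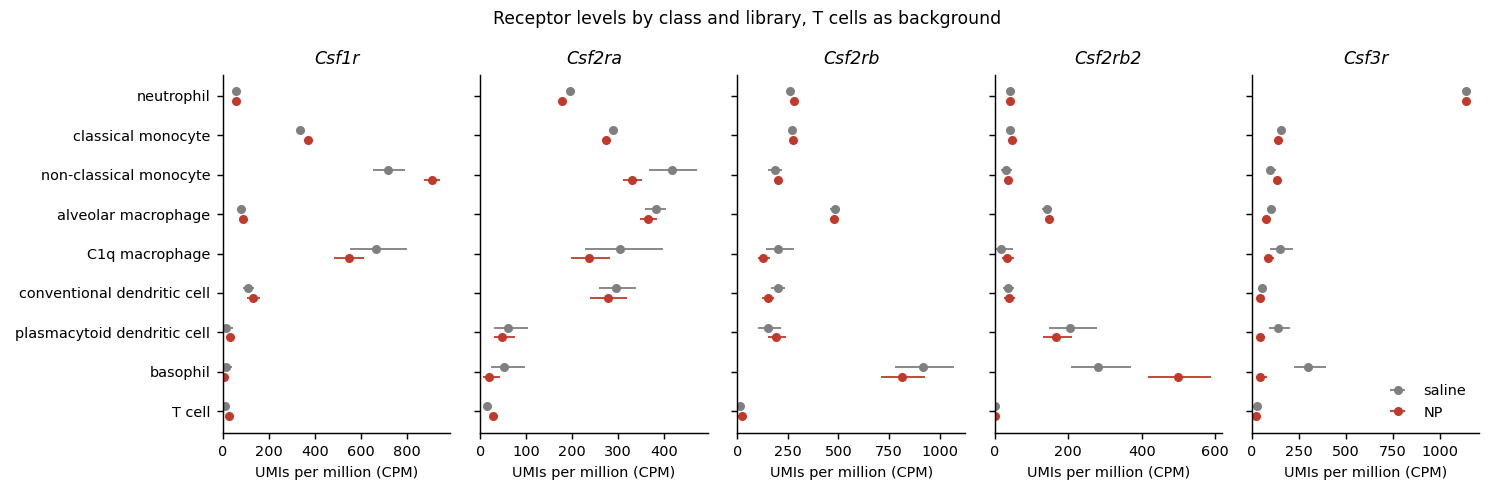
Level of the 5 receptor genes (x axis, CPM) in 8 myeloid classes and in T cells as background (y axis) in the saline library (grey) and the NP library (red); points are pooled levels and bars are 95% Poisson intervals, which cover counting error only. Csf3r stands out in neutrophils at 1139 CPM in both libraries, and Csf2rb and Csf2rb2 are highest in basophils. Csf1r is highest in non-classical monocytes at 718 and 906 CPM, where the saline interval overlaps that of C1q macrophages.

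Detection at equal depth gave the same picture. With every cell thinned to 1000 UMIs, 72.9% of saline neutrophils (71.7 to 74.1, Clopper-Pearson) and 72.7% of NP neutrophils (71.1 to 74.3) had a Csf3r UMI, against 1.17% and 0.840% of T cells. Without thinning these neutrophil shares were 99.3% and 99.0%, at median depths of 6043 and 5233.5 UMIs, and 26 of 428 and 25 of 357 T cells had a Csf3r UMI at 6238 and 6667 UMIs. For Csf1r the thinned shares were 55.1% (44.1 to 65.6) and 58.3% (53.0 to 63.6) of non-classical monocytes, 28.6% and 30.4% of classical monocytes and 8.69% and 8.49% of neutrophils. T cells had a Csf1r UMI in 0.467% and 0.840% after thinning. Unthinned, Csf1r was detected in 96.6% and 99.4% of non-classical monocytes. Thinning left out 8 saline neutrophils and 1 NP neutrophil and no monocyte or T cell. Barcodes with fewer than 50 UMIs, which hold free RNA, had a Csf3r level of 547 CPM in saline and 372 CPM in NP.

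The level of Csf3r over all kept cells differed between the libraries although its neutrophil level did not. Over all cells Csf3r was at 782 CPM in saline (776 to 788) and 479 CPM in NP (474 to 484), a log2 ratio of -0.71. Csf1r was at 101 CPM (98.7 to 103) and 176 CPM (173 to 179), a log2 ratio of 0.80. Csf2ra (194 and 187 CPM), Csf2rb (238 and 228 CPM) and Csf2rb2 (41.9 and 42.8 CPM) were close together. The ratios of these last 3 genes lay between -0.066 and 0.030. Of the 7 genes with at least 20 UMIs, 3 were past 1.5-fold, Csf1r and Csf2 higher and Csf3r lower in NP, where 39.8% of all 15757 genes tested were past it (34.6% higher and 5.2% lower). The median gene had a log2 ratio of 0.37 over all cells, and relative to it Csf1r was at 0.43, Csf3r at -1.08 and the 3 other receptor genes between -0.44 and -0.34. In such sums, fewer cells of a type and less RNA per cell cannot be told apart.

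The class composition was therefore set beside these sums. The saline level of each named class and unnamed cluster was combined with the UMI share that it had in the NP library. Clusters within a named class, such as those of neutrophils, were not weighted separately. Csf3r came to 499 CPM and Csf1r to 156 CPM. On the log2 scale this was -0.65 and 0.62 from saline, and the measured NP level differed from it by -0.060 for Csf3r and 0.18 for Csf1r. Neutrophils held 61.8% of the UMIs in saline and 33.3% in NP, classical monocytes 13.6% and 24.5%, and non-classical monocytes 0.775% and 4.18%.

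**Figure D2:**
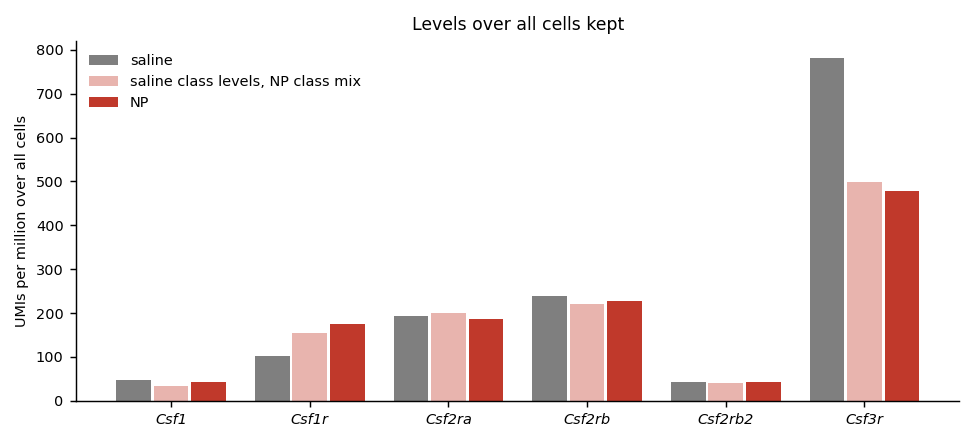
Level over all kept cells (y axis, CPM) of Csf1 and the 5 receptor genes (x axis) in the saline library (grey), in the NP library (red), and for the saline level of each class combined with the NP class composition (pale red); there is 1 library per group, so bars have no error. For Csf3r the values were 782, 499 and 479 CPM in the order saline, combined and NP, and for Csf1r 101, 156 and 176 CPM.

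Within neutrophils, the receptor and factor genes followed the order of the 7 clusters more than the treatment. The clusters are named by their leading genes, and they were ordered by the summed level of the granule genes Camp, Ngp and Ltf, which are made in immature neutrophils. In the cluster led by Camp, Ube2c and Ngp (18 saline and 17 NP cells), which also carries a cell cycle gene, Csf3r was at 91.4 and 61.6 CPM. In the cluster led by Ltf, Ly6g and Ngp (498 and 324 cells) it was at 251 and 199 CPM. It was at 913 and 854 CPM in the cluster led by Prok2, Retnlg and Stfa3 (1323 and 365 cells). Csf3r was thus lowest where granule genes were highest, in both libraries.

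In the 4 clusters with low granule gene levels the Csf3r level in CPM was higher still. The cluster led by Wfdc17, Retnlg and Gm13822 (217 and 346 cells) was at 1539 and 1400 CPM and the cluster led by Saa3, Stfa2l1 and Csta3 (1705 and 246 cells) at 1751 and 1630 CPM. The cluster led by the interferon-induced genes Isg15, Gbp2b and Rsad2 (160 and 1043 cells) was at 2034 and 1973 CPM, and the cluster led by Saa3, Il1b and Ccrl2 (1679 and 745 cells) at 2180 and 2159 CPM. From the lowest to the highest cluster the Csf3r CPM spanned 23.9-fold in saline and 35.1-fold in NP. Median depth fell from 43595 and 43059 UMIs in the Camp, Ube2c and Ngp cluster to 3646 and 3674 in the Saa3, Il1b and Ccrl2 cluster. CPM therefore does not give UMIs per cell. In saline the Saa3, Il1b and Ccrl2 cluster had 14032 Csf3r UMIs in 1679 cells. That is fewer per cell than the 14709 in 1323 cells of the Prok2, Retnlg and Stfa3 cluster. Csf3r was not higher in NP in any of the 7 clusters, with log2 ratios from -0.57 to -0.014, and none was past 1.5-fold. The median gene of these clusters was also lower in NP, and relative to it Csf3r was higher in 4 of the clusters, at 0.022 to 0.16, and lower in 3, at -0.46 to -0.012.

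Csf1r, which neutrophils carry as transcript at a low level, had the same order as Csf3r over the 6 clusters in which it had at least 20 UMIs. It was at 6.40 and 6.43 CPM in the Ltf, Ly6g and Ngp cluster and at 125 and 129 CPM in the Saa3, Il1b and Ccrl2 cluster. Between these clusters its CPM spanned 19.5-fold in saline and 20.1-fold in NP, across clusters of unlike depth. The GM-CSF receptor chains spanned less. Csf2ra ran from 131 to 245 CPM in saline and from 111 to 215 CPM in NP, 1.87-fold and 1.93-fold. Per cell it ran the other way in saline, with 96 UMIs in 18 cells of the Camp, Ube2c and Ngp cluster. The Saa3, Il1b and Ccrl2 cluster had 1575 in 1679 cells. Csf2rb ran from 160 to 359 CPM and from 106 to 382 CPM, and its highest level was in the Isg15, Gbp2b and Rsad2 cluster in both libraries. Csf2rb2 ran from 25.9 to 58.3 CPM in saline and from 10.7 to 61.4 CPM in NP, where the lowest values rest on 19 and 8 UMIs.

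**Figure D3:**
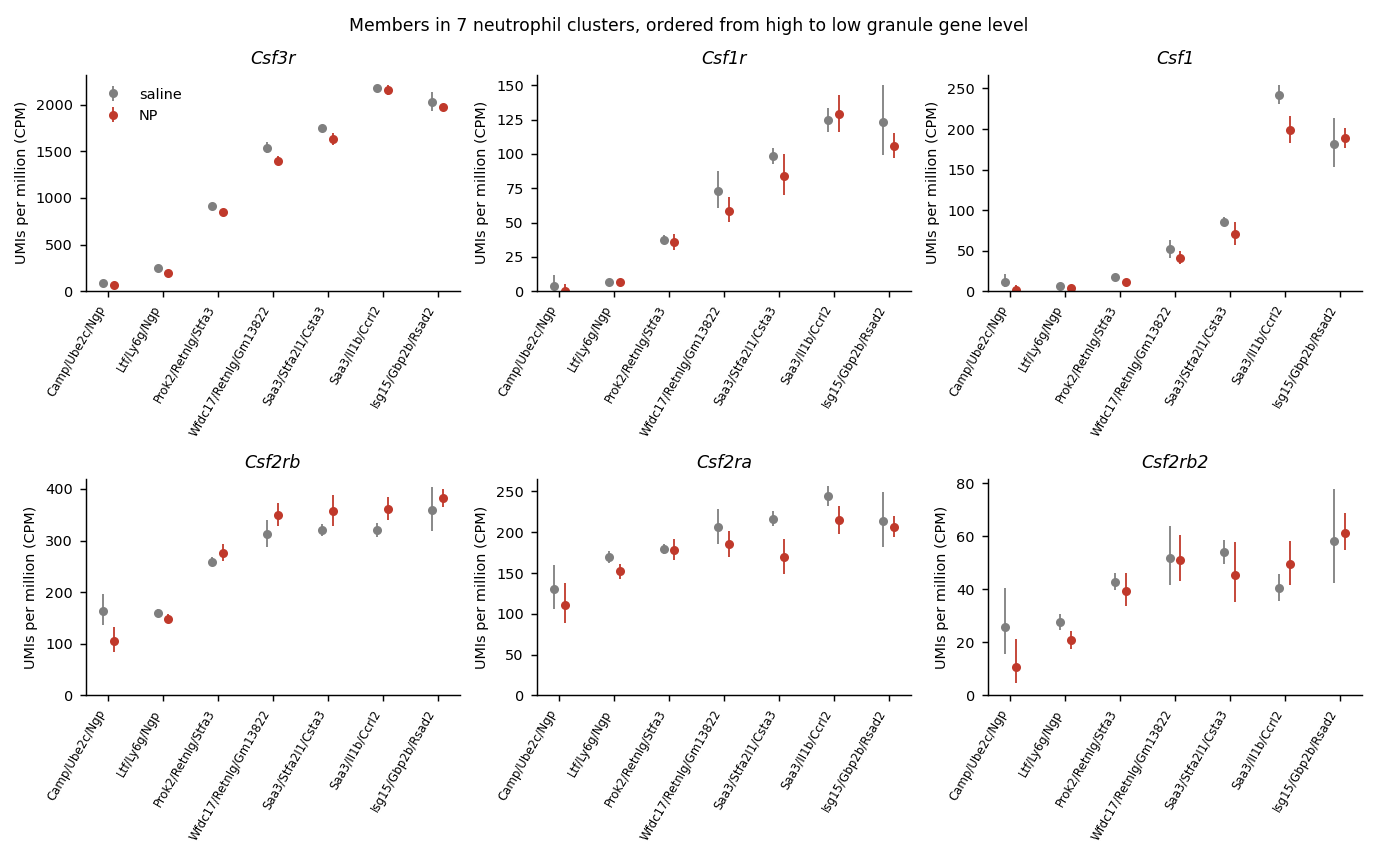
Level (y axis, CPM) of Csf3r, Csf1r, Csf1, Csf2rb, Csf2ra and Csf2rb2 in 7 neutrophil clusters, ordered on the x axis from high to low granule gene level, in the saline library (grey) and the NP library (red) with 95% Poisson intervals. Csf3r, Csf1r and Csf1 are low in the granule-gene clusters on the left and high on the right in both libraries, with Csf3r between 61.6 and 2180 CPM, while Csf2ra stays between 111 and 245 CPM.

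The libraries placed their neutrophils in different clusters, which bears on values pooled over the class. The Saa3, Stfa2l1 and Csta3 cluster held 30.4% of the saline and 7.97% of the NP neutrophils, and the Isg15, Gbp2b and Rsad2 cluster held 2.86% and 33.8%. Pooled over neutrophils, 0 of 6 genes were past 1.5-fold, where 19% of all genes tested were. The pooled log2 ratios were -0.12 for Csf2ra, 0.11 for Csf2rb, -0.04 for Csf2rb2 and 0.00 for Csf1r. The median neutrophil gene was at -0.13, so that Csf2ra was at 0.011 relative to it. With the clusters weighted alike in both libraries the ratios were -0.15 for Csf2ra, 0.09 for Csf2rb, -0.11 for Csf2rb2, -0.12 for Csf1r and -0.086 for Csf3r.

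In monocytes, Csf1r was higher in NP than in saline, by a margin smaller than 1.5-fold. In classical monocytes the 3558 saline UMIs and 6529 NP UMIs gave 335 CPM (324 to 346) and 368 CPM (359 to 377), a log2 ratio of 0.13 (0.075 to 0.19). This difference depended on the cluster. In the cluster led by F13a1, Ccr2 and Vcan (503 and 649 cells) Csf1r was at 317 and 294 CPM, and in the cluster led by Aif1, Ms4a6d and Ms4a4c (137 and 390 cells) it was at 448 and 525 CPM. The log2 ratios were -0.11 (-0.19 to -0.035) and 0.23 (0.12 to 0.34). For the Aif1, Ms4a6d and Ms4a4c cluster the second-best marker list was that of non-classical monocytes, and their marker Adgre4 was among its leading genes. It held 20.5% of the saline and 36.3% of the NP classical monocytes. With the clusters weighted alike the ratio over classical monocytes was 0.025.

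The other receptor genes of classical monocytes were within 1.5-fold. Csf2rb was at 271 and 274 CPM, Csf2rb2 at 42.5 and 48.5 CPM, Csf2ra at 290 and 274 CPM and Csf3r at 155 and 137 CPM. The clusters differed in their ratios. In the largest cluster, led by F13a1, Ccr2 and Vcan, the log2 ratio was -0.0033 for Csf2rb and 0.061 for Csf2rb2, and in the Aif1, Ms4a6d and Ms4a4c cluster it was 0.26 (0.11 to 0.41) and 0.61 (0.24 to 1.00). In the cluster led by F13a1, Ccnb2 and Mki67 (27 and 36 cells) it was -0.30 (-0.66 to 0.050) and -0.56 (-1.64 to 0.51), and Csf3r there, with 80 and 57 UMIs, was at -0.96 (-1.48 to -0.46). Csf1 was the 1 gene of 6 past 1.5-fold, with 13 and 43 UMIs, where 11.3% of all genes tested were past it (5.94% higher and 5.39% lower). At 2-fold, or with at least 200 UMIs, 0 genes were past the limit, where 4.33% and 4.31% of all genes were. Of its 43 NP UMIs, 15 were in 1 cell, and without the top cell of each library its log2 ratio was 0.60 instead of 0.98. At 1.2 and 2.4 CPM, Csf1 in classical monocytes was also no higher than in B cells (4.0 and 2.4 CPM).

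In non-classical monocytes Csf1r and Csf3r were higher in NP and Csf2ra was lower, each within 1.5-fold. Csf1r had 433 and 2742 UMIs there, at 718 and 906 CPM, a log2 ratio of 0.34 (0.19 to 0.49). This ratio was 0.73, past 1.5-fold, when each cell was named by its own marker score. Csf3r was at 97.8 and 134 CPM, a log2 ratio of 0.45 (0.056 to 0.87). Its saline interval overlapped that of the fibroblasts, so the saline value is not read as a level above background. Csf2ra was at 418 CPM (368 to 472) and 331 CPM (311 to 353), a log2 ratio of -0.33. Csf2rb was at 184 and 200 CPM and Csf2rb2 at 29.8 and 37.0 CPM, both with intervals of the ratio that held 0. None of the 5 genes was past 1.5-fold, where 22.8% of all genes tested were. The saline library had 89 such cells and the NP library 348.

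In alveolar macrophages the GM-CSF receptor transcripts were at like levels in both libraries. Csf2ra was at 382 CPM (360 to 405) in saline and 366 CPM (348 to 385) in NP, Csf2rb at 483 and 478 CPM and Csf2rb2 at 143 and 148.5 CPM. The log2 ratios were -0.062 (-0.17 to 0.050), -0.014 (-0.11 to 0.085) and 0.056 (-0.12 to 0.24). Csf3r was at 99.7 and 77.2 CPM, a log2 ratio of -0.37 (-0.60 to -0.14), beside a summed neutrophil marker level of 8161 and 5981 CPM whose part in it was not tested. The 1 of 6 genes past 1.5-fold was Csf1, with 9 and 29 UMIs, where 9.62% of all genes tested were past it. Its log2 ratio of 1.13 became -0.15 when each cell was named by its own marker score.

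In the rarer phagocytes the counts were small. In C1q macrophages 4 of 6 genes were past 1.5-fold, where 31.5% of all genes tested were, and the 17 saline cells gave only 26 Csf3r UMIs and 35 Csf2rb UMIs. Csf2rb2 rests on 3 and 17 UMIs there. Of these 4, Csf1 and Csf2rb2 were lower in NP instead of higher with cells named by their own marker score (-0.88 and -0.086), and Csf3r was higher (0.56) without the top cell of each library. Conventional dendritic cells (46 and 44 cells) had Csf2ra at 297 and 278 CPM, and Csf2rb at 198 and 151 CPM with a log2 ratio of -0.40 (-0.77 to -0.024). Plasmacytoid dendritic cells (18 and 34 cells) had 28 Csf3r UMIs in saline and 18 in NP. Mature dendritic cells, which carry Ccr7 and Fscn1, were 1 cell in saline and 30 cells in NP and were not compared. In the NP library those 30 cells had 431 CPM of Csf1r and 343 CPM of Csf2rb.

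Of the 15 named classes, basophils had the highest level of Csf1 and of both beta chains in each library. Csf1 was detected in 19 of 21 saline and 37 of 39 NP basophils, with 157 and 338 UMIs, 901 CPM (766 to 1054) and 1255 CPM (1125 to 1396). The log2 ratio was 0.48 (0.20 to 0.76), and 0.89 with cells named by their own marker score. Csf2rb2 had 49 and 134 UMIs and a log2 ratio of 0.82 (0.34 to 1.33), while Csf2rb with 160 and 219 UMIs had -0.18 (-0.48 to 0.13). Csf3r had 52 saline UMIs, 40 of them in 1 cell, and 12 NP UMIs. Of 4 genes, 2 were past 1.5-fold, where 29.9% of all genes tested were. The summed level of 17 neutrophil markers in these basophils was 23514 CPM in saline, with 17 of 17 detected, and 7462 CPM in NP, with 15 of 17 detected and Ltf and Clec4d at 0, and its part in these ratios was not tested.

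Most Csf1 UMIs nevertheless came from neutrophils, which are far more numerous. Neutrophils held 82.4% of the 3715 Csf1 UMIs of the saline cells and 59.5% of the 3049 of the NP cells. Basophils held 4.23% and 11.1%, endothelial cells 1.51% and 11.8%, and fibroblasts 1.02% and 1.34%. An unnamed cluster led by the mesothelial genes Msln and Upk3b with Igfbp5 (36 and 13 cells) held 2.18% and 0.787% at 203 and 251 CPM. T cells had 11 Csf1 UMIs in 10 saline cells and 47 in 16 NP cells, 11 of them in 1 cell. Over all cells Csf1 was at 47.7 CPM (46.2 to 49.3) in saline and 42.1 CPM (40.6 to 43.6) in NP, a log2 ratio of -0.18 (-0.25 to -0.11). Relative to the median gene over all cells it was at -0.55. The saline class levels combined with the NP class composition gave 34.8 CPM.

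**Figure D4:**
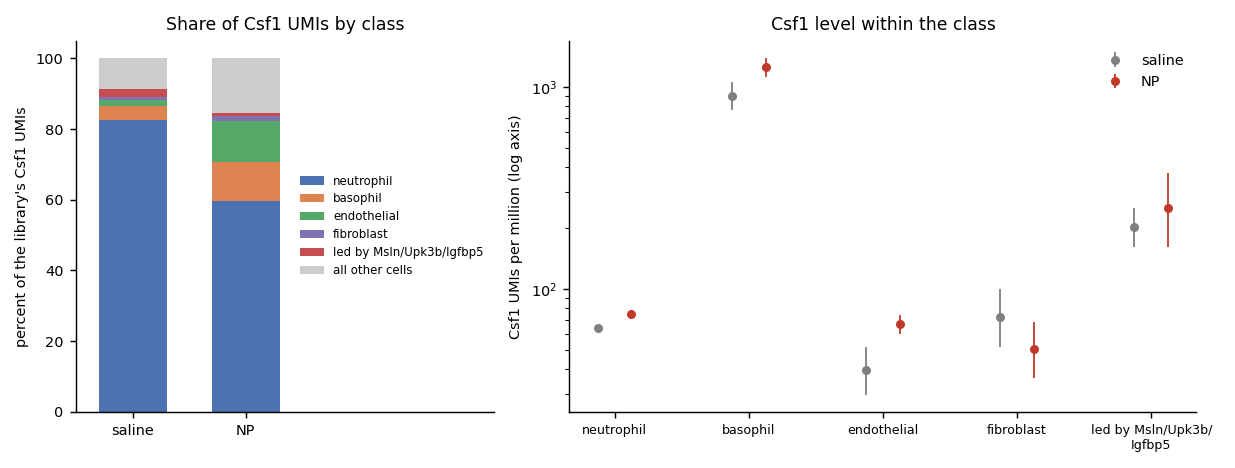
Left, share of each library's Csf1 UMIs by class (y axis, percent; x axis, library); right, Csf1 level within each class (y axis, CPM, log axis; x axis, class) in the saline library (grey) and the NP library (red) with 95% Poisson intervals. Neutrophils hold 82.4% and 59.5% of the UMIs, and basophils have the highest level at 901 and 1255 CPM.

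Within neutrophils, the direction of the Csf1 difference depended on how the clusters were weighted. Pooled, Csf1 was at 63.7 CPM (61.4 to 66.0) in saline and 75.3 CPM (71.9 to 78.9) in NP, a log2 ratio of 0.24 (0.16 to 0.33). In the Saa3, Il1b and Ccrl2 cluster it was at 242 and 199 CPM, in the Saa3, Stfa2l1 and Csta3 cluster at 85.6 and 70.2 CPM, and in the Wfdc17, Retnlg and Gm13822 cluster at 51.4 and 41.0 CPM. In the Prok2, Retnlg and Stfa3 cluster it was at 17.4 and 11.0 CPM, in the Ltf, Ly6g and Ngp cluster at 5.79 and 4.14 CPM, and in the Isg15, Gbp2b and Rsad2 cluster at 181 and 189 CPM.

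Csf1 was thus higher in NP in 1 of the 6 clusters with at least 20 UMIs and lower in 5. The counting interval of the log2 ratio excluded 0 in 2 of the 5, the Prok2, Retnlg and Stfa3 cluster at -0.66 (-1.15 to -0.21) and the Saa3, Il1b and Ccrl2 cluster at -0.28 (-0.42 to -0.14). The median gene of these 2 clusters was at -0.12 and -0.18, and relative to it Csf1 was at -0.55 and -0.10. Weighted alike, the clusters gave 70.1 CPM in saline and 59.5 CPM in NP, a log2 ratio of -0.24. The share of neutrophils with a Csf1 UMI after thinning was 9.59% (8.83 to 10.4) and 11.2% (10.2 to 12.4), against 2 of 600 NP B cells (0.333%), and without thinning 28.5% and 29.8%, against 2.35% and 1.33% of B cells at median depths of 4339 and 4446.5 UMIs.

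Endothelial cells held a higher share of the Csf1 UMIs in NP than in saline. They gave 56 Csf1 UMIs from 299 cells in saline and 359 from 1122 cells in NP, 39.5 CPM (29.8 to 51.3) and 66.6 CPM (59.9 to 73.8). The log2 ratio was 0.75 (0.34 to 1.19), but 0.26 when each cell was named by its own marker score. The class leaves out an unnamed cluster led by Ager, Akap5 and Epas1 (137 and 422 cells), whose best marker list was endothelial. After thinning, the shares of endothelial cells with a Csf1 UMI were 5.41% (3.12 to 8.63) and 6.05% (4.72 to 7.62), which overlapped. Of 5 genes, 3 were past 1.5-fold, where 14.7% of all genes tested were. Besides Csf1 these were 2 receptor genes lower in NP, Csf3r (98.8 and 49.3 CPM) and Csf2rb (23.3 and 10.0 CPM). In the endothelial cluster led by Ptprb, Tek and Sema3g, 1 saline cell held 26 of 123 Csf3r UMIs and 1 held 7 of 23 Csf2rb UMIs. In NP the top cells there held 16 of 203 and 4 of 39. The summed neutrophil marker level in endothelial cells was 11786 CPM in saline and 3841 CPM in NP, with 17 of 17 markers detected in both, and its part in these ratios was not tested.

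**Figure D5:**
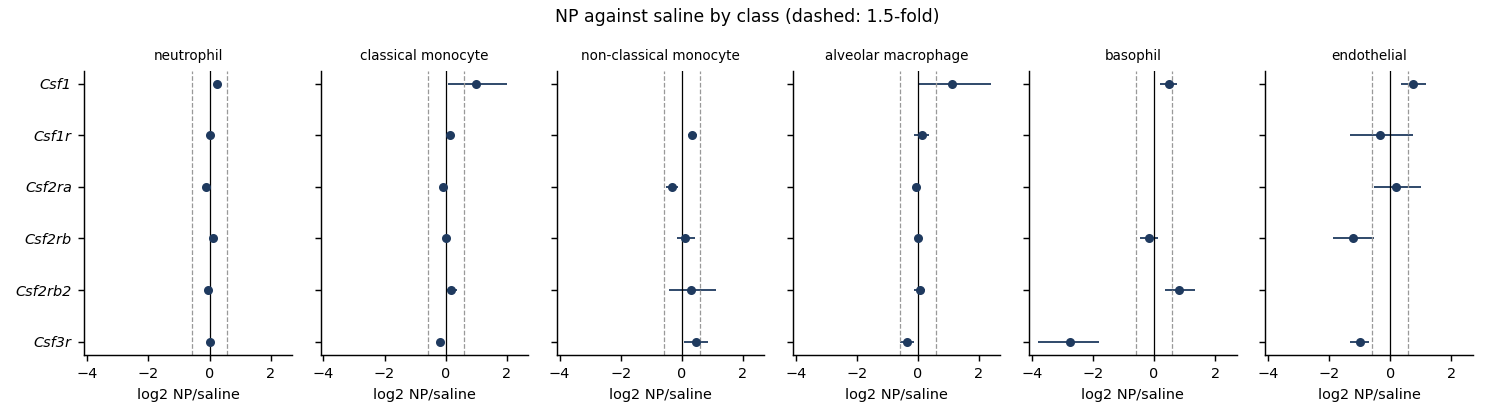
Log2 ratio of NP to saline (x axis) of Csf1 and the 5 receptor genes (y axis) in 6 classes, for genes with at least 20 UMIs in the class; bars are 95% intervals from counting error, the solid line is 0 and the dashed lines are 1.5-fold. The 5 neutrophil receptor ratios lie between -0.12 and 0.11, while the endothelial Csf3r and Csf2rb ratios lie left of the lower dashed line at -1.002 and -1.22.

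Csf2 was rare, with 52 UMIs in saline and 75 in NP over all cells, 0.668 CPM (0.499 to 0.876) and 1.04 CPM (0.815 to 1.30). The log2 ratio was 0.63 (0.10 to 1.17), where the median gene over all cells was at 0.37 and 34.6% of all genes tested were past 1.5-fold higher. One unnamed cluster held most of it, 41 saline and 49 NP UMIs (78.8% and 65.3%). That cluster, led by Cxcr6, Gata3 and Icos (84 and 66 cells), carried markers of both T cells and type 2 innate lymphoid cells (ILC2s), known GM-CSF producers. Its Csf2 level was 56.1 CPM in saline and 100.6 CPM in NP, a log2 ratio of 0.84 (0.21 to 1.48). The UMIs came from few cells, 13 in saline and 8 in NP, and a single cell held 17 and 23 of them. Without the top cell of each library the log2 ratio was 0.70, for which no interval was computed.

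When the Cxcr6, Gata3 and Icos cluster was split by CD3 transcripts, the Csf2 level was higher in the cells that lacked them. Cells with CD3 UMIs (50 and 38) had 10 and 15 Csf2 UMIs, 18.8 CPM (9.04 to 34.7) and 46.3 CPM (25.9 to 76.4). Cells without CD3 UMIs (34 and 28) had 31 and 34 Csf2 UMIs, 155 CPM (105 to 220) and 208 CPM (144 to 290). UMIs of all genes summed to 530715 and 323640 in the cells with CD3 UMIs and to 199762 and 163551 in those without. The cells without CD3 UMIs were thus shallower on average, and the part of depth in this split was not tested. The ILC2 markers summed to 367 and 667 CPM in the first and 2493 and 3039 CPM in the second. Without the top cell of each part, the cells without CD3 UMIs were at 72.3 CPM (39.5 to 121) and 69.4 CPM (34.7 to 124) and the cells with them at 13.3 CPM (5.36 to 27.5) and 18.8 CPM (6.92 to 41.0), so that the intervals of the NP cells overlapped. The summed neutrophil marker level of the whole cluster was 98768 and 66974 CPM, and its part in the Csf2 level was not tested.

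Epithelial cells held the next largest number of Csf2 UMIs, a known product of the alveolar epithelium. They had 5 UMIs in 5 of 53 saline cells and 17 UMIs in 15 of 49 NP cells, 7.47 CPM (2.43 to 17.4) and 19.3 CPM (11.3 to 31.0). The log2 ratio of 1.37 had an interval that held 0 (-0.13 to 3.17). Of all genes tested in epithelial cells 47% were past 1.5-fold, and their median was at 0.22.

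Csf3, the ligand of the receptor that neutrophils carried at over 1000 CPM in both libraries, gave 7 UMIs in all. The 2 saline UMIs were in 1 neutrophil. Of the 5 NP UMIs, 3 were in classical monocytes, 1 in a neutrophil and 1 in a B cell. Levels of Csf3 between the libraries were not distinguishable at this depth.

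The wider list held 57 genes of the pathway: related ligands and receptors, signalling molecules, feedback and induced targets, lineage transcription factors and GM-CSF-dependent macrophage genes. In neutrophils 48 were tested, of which 6 were past 1.5-fold higher in NP and 1 lower, where 8.55% and 10.5% of all genes were. Their median log2 ratio was 0.15, that of all genes -0.13. The list values in neutrophils and classical monocytes were pooled over clusters whose shares differed between the libraries. They were not recomputed with clusters weighted alike, so differences within clusters and in cluster shares cannot be told apart. With at least 200 UMIs 2 list genes were past 1.5-fold higher, where 3.83% of all genes were, and at 2-fold 3, where 4.13% were. The highest were Socs1, an interferon- and cytokine-induced inhibitor of JAK kinases, at 5.37 and 33.9 CPM (log2 ratio 2.66), the fatty acid receptor Cd36 at 1.60 and 4.23 CPM (1.40) and the myeloid transcription factor Irf8 at 0.811 and 1.74 CPM (1.10). Fabp4 followed with 0.88 (-0.38 to 2.13) on 13 and 12 UMIs. Gfi1, a transcription factor of granulocyte development, was at 0.77 (-0.47 to 1.99) on 14 and 12 UMIs. Both intervals held 0. The immediate early gene Egr1 was at 468 and 757.5 CPM with 0.70.

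At the lower end in neutrophils, again pooled over clusters, Kit, the stem cell factor receptor, was at 42.2 and 16.2 CPM (log2 ratio -1.38). It was the only list gene past 1.5-fold in that direction. Spry2 (-0.56), Shc1 (-0.28), Akt1 (-0.28), Abcg1 (-0.21) and Klf4 (-0.21) followed within 1.5-fold. All 17 signalling genes, among them the JAK and STAT genes that these receptors use, were tested in neutrophils, with a median of 0.059. Each had at least 200 UMIs and 0 were past 1.5-fold, where 8.3% of all genes with at least 200 UMIs were. The 11 tested feedback and induced targets had a median of 0.18, with Socs3, a feedback inhibitor of G-CSF receptor signalling, at 480 and 569 CPM (0.25) and Pim1 at 724 and 979 CPM (0.44). The 12 lineage transcription factors had a median of 0.30. Values for Socs3 and Pim1 were chosen after they were seen.

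In classical monocytes 46 list genes were tested, 5 higher and 3 lower past 1.5-fold, where 5.94% and 5.39% of all genes were, and the medians were 0.05 for the list and -0.05 for all genes. With at least 200 UMIs 1 was higher and 0 lower, where 2.82% and 1.49% of all genes were, and at 2-fold 3 and 1, where 2.76% and 1.57% were. Fabp4, a lipid-binding protein of alveolar macrophages, had 9 and 76 UMIs (log2 ratio 2.34) and Socs1 22 and 143 UMIs (1.96). Cd36 (1.07), Pparg (0.88), which encodes the transcription factor through which GM-CSF shapes alveolar macrophages, and Jak2 (0.36) were also among the highest. Flt3, the receptor of dendritic cell precursors, was lowest at 7.63 and 2.54 CPM (-1.59), and other low values were those of Spry2 (-0.68), Pim2 (-0.61), Socs3 at 214 and 148 CPM (-0.53) and Dusp6 (-0.42). Of the 7 GM-CSF-dependent macrophage genes 5 were tested. Of these 3, Fabp4, Cd36 (30 and 105 UMIs) and Pparg (45 and 138 UMIs), were past 1.5-fold higher in NP, and 0 were past 1.5-fold lower. Their levels were low, at 0.848 and 4.28 CPM for Fabp4, 2.83 and 5.92 CPM for Cd36 and 4.24 and 7.78 CPM for Pparg. With at least 200 UMIs 2 were tested, 0 were past it, and their median was -0.057. These were Bhlhe40 (594 and 1137 UMIs), at 0.20 (0.051 to 0.34), and Abcg1 (461 and 622 UMIs), which was lower in NP at -0.31 (-0.49 to -0.13). In non-classical monocytes Fabp4 had 215 and 560 UMIs, 356 and 185 CPM, a log2 ratio of -0.95 (-1.17 to -0.71). Cd36 was at 154 and 130 CPM there and Pparg at 91.1 and 87.2 CPM, both with intervals of the ratio that held 0. The part of transcripts from other classes in the classical monocyte values was not tested. In classical monocytes 11 of the 12 lineage transcription factors were tested and 0 were past 1.5-fold in either direction.

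As a description of which genes had like patterns, log2(CPM + 10) was correlated over 29 points, which are the 15 classes in each library without the single saline mature dendritic cell, and which share libraries and depth. For Csf3r the closest genes were Grina (r = 0.894), Trem1 (0.883) and Wfdc17 (0.880). For Csf1r they were E230029C05Rik (0.934), Clec4a3 (0.924) and Tmem51 (0.897), and for Csf2ra Cd300c2 (0.972), Rab32 (0.951) and Sirpa (0.931). Csf2rb was closest to Taldo1 (0.933), Nlrp3 (0.908) and its neighbor Csf2rb2 (0.902). Csf2rb2 was closest to Csf2rb, Cd200r1 (0.839) and Ncf1 (0.838). Csf1 was closest to Ptger3 (0.888), Adgrg3 (0.887) and Itga2b (0.876).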

How the data were processed

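Lung cell suspensions were profiled with droplet single-cell RNA sequencing, 1 library per group. The authors deposited, for each library, a matrix of UMI counts per gene and barcode that was not normalized. The submitters' processing notes name Cell Ranger 6.0, bcl2fastq and mm10, and the matrix header names Cell Ranger 4. The matrices hold barcodes with very low counts, so cells were selected here by the limits of the study's methods (500 to 5000 genes, under 7.5% mitochondrial UMIs).

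For clustering, each cell was brought to a total of 10000 and logged. From 2000 variable genes, without the 8 genes and the pathway list, 30 principal components and a 20-neighbor graph were computed, and the graph was partitioned by the Leiden algorithm at resolution 1 (scanpy 1.11.5, leidenalg 0.10.2, igraph 0.11.9, scikit-learn 1.9.0). Of 32 clusters, named from 20 marker lists, 9 stayed unnamed, and mixed phagocyte clusters were split into 12 sub-clusters. Class names are rebuilt and may differ from the study's. Doublets were kept, and leaving them out was an alternative: in saline, Scrublet's own threshold marked 0.0115% of the cells and had not worked, and with the NP threshold 2.64% of saline and 3.73% of NP cells were marked.

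UMIs were summed per class and library and divided by the class total (CPM). Levels have exact Poisson intervals and ratios exact conditional binomial intervals (scipy 1.17.1), with counts under 3 set to 3 in a ratio. A gene was tested against the 1.5-fold limit where it had at least 20 UMIs in the class over both libraries. The interval code was tested on simulated data with known folds. Shares were computed after thinning each cell to 1000 UMIs. The genes named in the text were the 8 genes, the 6 highest and 6 lowest of the 57 pathway genes in neutrophils and in classical monocytes, the 3 genes most like each of the 8 with at least 200 UMIs, and markers. Some genes that this rule names are not reported here. The 8 genes and all lists were chosen with earlier results of these data known. Sequences and positions came from the GENCODE M21 annotation of GRCm38, aligned with Biopython 1.88. Alternatives were another naming rule, cell filters, resolution, weighting, centring, thresholds and thinning depths, and the removal of doublets or of the top cell. Another, for named classes, was the subtraction of the highest free RNA share that the marker lists of other classes allowed.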

Additional observations from a re-analysis of the deposited data

Results flagged for a closer look

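Csf2rb and Csf2rb2 had ratios of NP to saline that pointed opposite ways in different classes, with counting intervals that excluded 0. The difference between the classes was not tested, as each group is 1 library. How many of all genes point opposite ways by the same rule was not counted. Of all genes tested, 31.5% were past 1.5-fold in either direction in C1q macrophages and 29.9% in basophils. The shares were 15.5% in T cells, 14.7% in endothelial cells and 11.4% in B cells. For Csf2rb the log2 ratio was 0.63 in T cells (41 and 59 UMIs in saline and NP), -0.64 in C1q macrophages (35 and 66 UMIs), -1.07 in B cells (89 and 50 UMIs) and -1.22 in endothelial cells (33 and 54 UMIs). The T cell value, the only one of the 4 above 0, turned to -0.32 with each cell named by its own score, -0.061 at resolution 2 and -0.011 with the 8 genes among the variable genes, so the direction in T cells depends on these settings. For Csf2rb2 it was 0.82 in basophils (49 and 134 UMIs) and -1.83 in B cells (18 and 6 UMIs). Apart from the basophils and C1q macrophages, these are classes in which the beta chains were at 32.0 CPM or less.

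The summed level of the 17 neutrophil markers was lower in NP in each of these classes. It was 2149 and 1200 CPM in T cells, 2254 and 1001 CPM in B cells, 5298 and 906 CPM in C1q macrophages, 11786 and 3841 CPM in endothelial cells and 23514 and 7462 CPM in basophils. In C1q macrophages 15 of 17 markers were detected in each library, with Ly6g and Ltf at 0 in saline and Mmp8 and Ltf at 0 in NP. The part of these transcripts in the beta chain ratios was not tested.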

How the results depend on the processing

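No paired analysis was possible because each group is 1 library. Removing doublets and weighting clusters alike were chosen after seeing the data, and Scrublet's own saline threshold was not run as an alternative because it had not worked. The log2 ratio of Csf1 in neutrophils was 0.24, 0.37 when centred on the median gene and -0.24 with clusters weighted alike. That of Csf3r in neutrophils was 0.00, and -0.024 with each cell named by its own score, 0.038 with cells weighted equally, 0.13 when centred and -0.086 with clusters weighted alike. Csf1r in classical monocytes gave 0.025 with clusters weighted alike (0.13 as reported). Naming each cell by its own score gave 0.73 for Csf1r in non-classical monocytes, 0.89 for Csf1 in basophils and 0.26 for Csf1 in endothelial cells, and turned Csf1 to -0.15 in alveolar macrophages and, in C1q macrophages, Csf1 to -0.88 and Csf2rb2 to -0.086. Csf3r in C1q macrophages turned to 0.56 without the top cell of each library. In T cells Csf1r turned to -0.71 and Csf2ra to -0.70 without doublets, Csf2ra to -0.045 and Csf2rb to -0.32 by own score, and Csf2rb to -0.061 at resolution 2 and -0.011 with the 8 genes among the variable genes. The cause was not tested. In classical monocytes 1 gene was past 1.5-fold, 0 were past 2-fold and 0 were past 1.5-fold with at least 200 UMIs. Of the pathway list, the 6 higher genes of neutrophils became 2 with at least 200 UMIs and 3 at 2-fold, the 5 higher genes of classical monocytes 1 and 3, and their 3 lower genes 0 and 1. Shares of cells follow depth: Csf3r in neutrophils was detected in 99.3% and 99.0% (saline and NP) without thinning and in 87.6% and 86.7% at 2000 UMIs, and Csf1r in non-classical monocytes in 96.6% and 99.4% and in 76.4% and 82.8%. Of 675 further values over 69 results, 615 stayed within the reported interval, 50 moved and 10 turned. Turned means a changed sign for a ratio past 1.5-fold as reported, so sign changes of smaller ratios are not among the 10. Some main results, such as Csf1 in neutrophils, are not part of these values.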

Other observations

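An unnamed cluster led by Mpo, Ctsg and Prtn3, genes of the primary granules that early myeloid precursors make, had UMIs of all 5 receptor genes. It held 73 saline cells with a median of 21754 UMIs and 95 NP cells with a median of 1525 UMIs, so the libraries differed in depth there. Csf1r was at 170 CPM (150 to 192) in saline and 180 CPM (154 to 209) in NP, and Csf2ra at 248 CPM (224 to 274) and 232 CPM (202 to 264). Csf2rb was at 318 and 235 CPM, Csf2rb2 at 59.7 and 38.1 CPM and Csf3r at 599 and 292 CPM. Free RNA in saline and NP was at 82.1 and 151 CPM for Csf1r, 188 and 190 CPM for Csf2ra and 143 and 134 CPM for Csf2rb. For Csf2rb2 it was at 36.8 and 36.4 CPM and for Csf3r at 547 and 372 CPM. The parts of the depth difference and of free RNA in the values of this cluster were not tested.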
